A study of Mus musculus with 4 samples.

Results

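Among the sorted cells of 4T1 tumours, 1316 of 32133 kept cells were Chil3-negative Ly6c2 Ccr2 monocytes, or 4.10% (95% exact binomial interval 3.88 to 4.32%). They were selected on their transcripts: at least 2 unique molecular identifiers (UMIs, each counting 1 captured transcript molecule) of Ly6c2, at least 1 of Ccr2 and 0 of Chil3. Cells with Siglech, Cd3d or Cd3g UMIs were left out, as were cells in which S100a8 and S100a9 made up 1% of UMIs or more, the C1q genes 0.3% or more, or Col1a1, Col1a2 and Col3a1 0.5% or more. A kept cell had at least 300 genes and at most 15% mitochondrial UMIs, and no leucocyte transcript was required of it. The comparison class of 1850 Chil3-positive monocytes met the same conditions with at least 1 Chil3 UMI.

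The tumours came from 4T1, a mouse mammary carcinoma line implanted in 1 flank of BALB/c females of 6 to 8 weeks, and the study sorted the tumour cells for the leucocyte protein CD45. Of the 4 samples, 2 received PBS and 1 received TIOs+NIR3, in which TIOs are a carrier made from engineered macrophages that holds upconverting nanoparticles with a photosensitizer and the GPX4 inhibitor RSL3. For the last sample the title says PBS while the protocol text says TIOs, and it was placed in no group. Every group was injected on day 7 and gave its tumours on day 13. Each received near-infrared light of 980 nm at 1.0 W cm-2 for 5 min a day on days 8 to 10. The paper gives this intensity and collection day in its methods for flow cytometry of tumour lymphocytes. It gives a lower intensity in its tumour growth methods, and its single-cell methods state neither light dose nor collection day. The cells of the 4 libraries were joined in 1 matrix, and no source used here links a library to a sample, so each library is a sample of unknown treatment. Treatments could not be set against each other, and the values below carry no p-value.

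Ly6C-high monocytes leave the bone marrow through the chemokine receptor CCR2 and enter inflamed tissues and tumours, where they can become macrophages or cells with dendritic features. Chil3 encodes the secreted lectin Ym1, which is abundant in monocytes that arise along the granulocyte-related branch, whereas monocytes related to dendritic cell progenitors carry MHC class II genes, Cd209a and Flt3. MHC class II molecules load peptides from engulfed proteins and present them to CD4 T cells.

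The libraries were unequal in these cells. Library 1 held 46 of them among 7847 kept cells, or 0.586% (0.430 to 0.781%). Library 2 held 106 of 8614, or 1.23% (1.01 to 1.49%), library 3 held 138 of 6783, or 2.03% (1.71 to 2.40%), and library 4 held 1026 of 8889, or 11.5% (10.9 to 12.2%). Library 4 therefore gave 78.0% of all the cells described, and pooled values would mainly be its own. Values are given by library, except totals and where pooling is stated. The intervals cover counting error only and not differences between mice. The shares are of all kept cells and not of leucocytes. Fibroblast and epithelial transcripts among the kept cells differed between libraries, as given below. The part of this in the unequal shares was not tested. Median depth was 5372, 6219, 7336 and 8741 UMIs per cell in libraries 1 to 4, and the median number of detected genes was 1868, 2219, 2362 and 2663. Of all barcode sequences, 101 occurred in 2 libraries, and 8 of the Chil3-negative monocytes carried such a sequence, none of which was selected in both of its libraries.

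**Figure D1:**
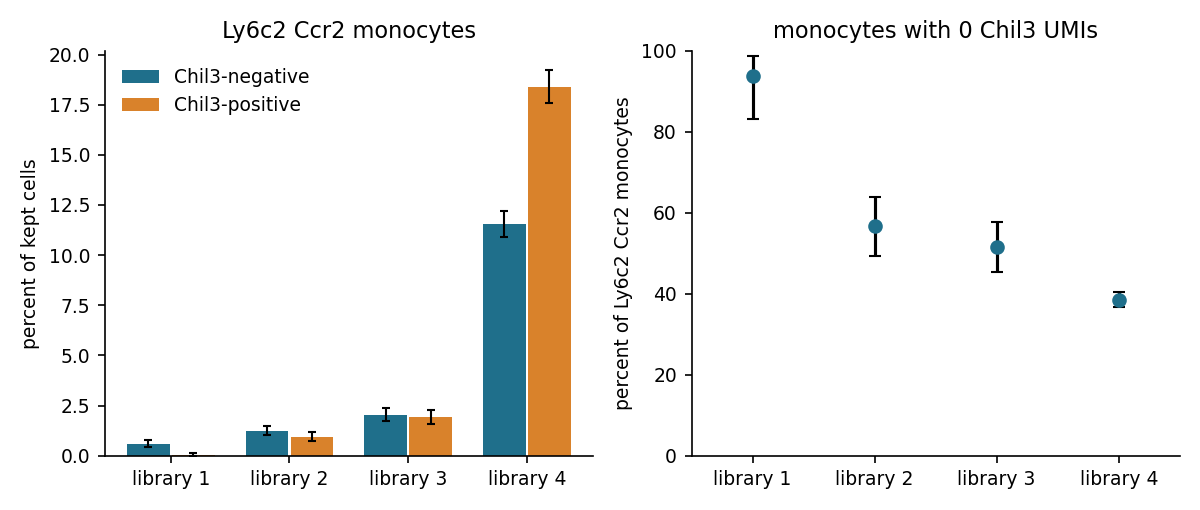
Left, percent of kept cells that were Chil3-negative or Chil3-positive Ly6c2 Ccr2 monocytes in each library; right, percent of these monocytes that held 0 Chil3 UMIs. Bars and points are single libraries of unknown treatment, and error bars are 95% exact binomial intervals. Library 4 held 11.5% Chil3-negative and 18.4% Chil3-positive cells, and in library 1 only 3 Chil3-positive cells were found.

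The share of the Ly6c2 Ccr2 monocytes that held no Chil3 UMI differed between libraries in the other order. It was 93.9% of 49 cells in library 1 (83.1 to 98.7%), 56.7% of 187 in library 2 (49.3 to 63.9%), 51.5% of 268 in library 3 (45.3 to 57.6%) and 38.5% of 2662 in library 4 (36.7 to 40.4%). The intervals of libraries 2 and 3 overlapped, and those of libraries 1 and 4 overlapped no other. They count cells within 1 sample each, so they do not measure differences between samples. A count of 0 depends on depth. With the 4 libraries pooled, 60.7% of monocytes under 5000 UMIs had none (55.0 to 66.2%). The pooled share was 39.1% from 5000 to 10000 UMIs (36.9 to 41.4%) and 40.1% at 10000 or more (37.0 to 43.4%). Within the band from 5000 to 10000 UMIs the shares of libraries 1 to 4 were 95.8%, 48.3%, 47.1% and 36.7%, so the order of the libraries was the same at matched depth.

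Chil3 had no gap in its counts at the boundary. Beside the 1316 cells with 0 UMIs there were 579 with 1, 650 with 2 to 4 and 621 with 5 or more, the highest count being 43. Levels compared across a condition are pooled over the 4 libraries here. The 579 cells just outside, with 1 Chil3 UMI, had 3133 counts per 1000000 UMIs (CPM) of Plac8 against 3089 CPM in the selected cells. Their H2-Aa was at 516 CPM against 913 CPM. Library 4 gave 516 of these 579 cells and 1026 of the 1316 selected cells. The part of this library mix in the H2-Aa difference was not tested. For Ly6c2, the 237 selected cells with 2 UMIs had 1637 CPM of Plac8 and the 463 cells just outside, with 1 UMI, had 1060 CPM. The Ccr2 condition alone kept out 233 cells, in which Csf1r was at 60.8 CPM, against 122 CPM in the 144 selected cells with 1 Ccr2 UMI. Chil4, a neighbouring relative of Chil3, was at 0 in all 4 libraries. Ly6c1, a nearly identical neighbour of Ly6c2 on chromosome 15, was at 458, 415, 576 and 744 CPM in libraries 1 to 4, and reads of the pair may be split between them.

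Markers outside the selection showed how far the name held. Plac8, which marks classical monocytes and was not used to select them, had a UMI in 93.5%, 97.2%, 97.8% and 98.8% of these monocytes in the respective libraries. In T cells of the same libraries, some of which can express it, the share was 19.7%, 36.4%, 34.5% and 57.6% at median depths of 4498, 6275, 3952 and 5189 UMIs. Ms4a4c, a membrane protein gene of the same monocytes, was found in 84.8%, 86.8%, 91.3% and 95.5% of the selected cells and in 11.5%, 3.03%, 7.33% and 33.2% of T cells. With every cell thinned to 2000 UMIs, which left out 0, 3, 7 and 14 shallower selected cells, Plac8 was found in 91.3%, 92.2%, 94.7% and 92.6% of them and in at most 32.6% of T cells of a library. The thinned Ms4a4c shares were 63.0%, 69.9%, 75.6% and 83.8%, above the 17.4% of the highest T cell library. These markers set the cells apart from macrophages less well, since Plac8 had a UMI in 30.6%, 59.4%, 76.9% and 89.0% of C1q-high macrophages of libraries 1 to 4 and Ms4a4c in 52.6%, 29.7%, 52.3% and 80.7%. Lyz2, the lysozyme of myeloid cells, stood below 5 UMIs in 13 of 46, 20 of 106, 34 of 138 and 73 of 1026 cells of libraries 1 to 4, against 4 of 81, 13 of 130 and 29 of 1636 Chil3-positive cells of libraries 2 to 4. Other monocyte markers were mixed in library 1. Cd14 had a UMI in 82.6%, 84.0%, 84.1% and 80.3% of the selected cells of libraries 1 to 4, Fn1 in 76.1%, 73.6%, 67.4% and 75.9%, and Csf1r in 65.2%, 77.4%, 71.0% and 77.6%, so library 1 was near the others. In T cells of library 1 these shares were 20.5%, 55.6% and 11.7%. Fn1 had a UMI in 51.5%, 21.0% and 42.4% of T cells of libraries 2 to 4, so its share sets the cells apart poorly. Vcan had a UMI in 13.0%, 43.4%, 53.6% and 75.5% of the selected cells of libraries 1 to 4, F13a1 in 19.6%, 58.5%, 73.9% and 81.5%, and Thbs1 in 23.9%, 64.2%, 69.6% and 73.0%, against 1.55%, 1.10% and 10.4% of T cells of library 1 for the 3 genes. Itgax had a UMI in 30.4% of the selected cells of library 1 and in 6.60%, 3.62% and 6.63% elsewhere. The C1q-high macrophages showed the same contrast, with Itgax in 43.9%, 1.58%, 1.54% and 3.86% of cells.

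Over all other kept cells of the same library, 56 of 6784 genes were at least 2-fold higher in every library (0.825%) and 217 were at least 2-fold lower (3.2%), after adding 10 CPM to both sides. The leading genes were Ly6c2 and Ccr2, on which the cells were chosen, with Ms4a4c, Fcgr1, Plac8, Ms4a6d, Ms4a6c, Ms4a6b, Lyz2 and Tgfbi. Fcgr1, the high-affinity IgG receptor CD64, was at 410, 632, 952 and 1256 CPM in libraries 1 to 4. Tgfbi, a secreted matrix protein of monocytes, was at 1406, 1639, 1038 and 1405 CPM, with no order along the libraries' monocyte shares.

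Against the Chil3-positive monocytes few genes passed the limits set. In libraries 2, 3 and 4, where both classes had at least 20 cells, 8 of 5755 genes were at least 2-fold higher in all 3 libraries (0.139%) and 1 was at least 2-fold lower (0.0174%), which was Chil3 itself. The median log2 difference over all tested genes was 0.03. The 8 higher genes were the MHC class II genes H2-Aa, H2-Eb1, H2-DMb1 and H2-Ea-ps, the cytotoxic lymphocyte genes Gzma, Nkg7 and Il2rb, and Ctla2a. The class II calls depended on the setting. With cells thinned to 2000 UMIs, or against cells with at least 3 Chil3 UMIs, H2-DMb1 was the only class II gene called. Without the highest 5% of doublet scores, H2-DMb1 and H2-Eb1 were the class II genes called. Since the classes were set apart by Chil3 in these same cells, the differences are a description and no test was made.

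The 4 called MHC class II genes lie on chromosome 17. The 150 bases before the start sites of the 3 called genes with an entry are shown because these genes were higher together, with the letters ATTGG, or CCAAT on the other strand, in capitals. These letters are the core of the Y box, a known element of class II promoters that binds the factor NF-Y. All sequences are from RefSeq, build GRCm38.p6, written 5′ to 3′ on the gene's strand.
H2-Aa (minus strand, chr17:34287824-34287973): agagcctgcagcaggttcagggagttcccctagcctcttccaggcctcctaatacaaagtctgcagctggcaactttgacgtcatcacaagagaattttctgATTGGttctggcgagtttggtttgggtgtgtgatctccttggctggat
H2-Eb1 (plus strand, chr17:34305717-34305866): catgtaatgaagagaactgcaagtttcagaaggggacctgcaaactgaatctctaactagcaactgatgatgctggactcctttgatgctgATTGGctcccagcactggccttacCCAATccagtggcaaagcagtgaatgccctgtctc
H2-DMb1 (plus strand, chr17:34153041-34153190): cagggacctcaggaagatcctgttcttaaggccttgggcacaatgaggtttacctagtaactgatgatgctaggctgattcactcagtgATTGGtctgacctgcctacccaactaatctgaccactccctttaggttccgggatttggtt
Each of the 3 windows held the letters, H2-Eb1 2 times, starting at base -48 before the start site in H2-Aa, -59 and -35 in H2-Eb1 and -61 in H2-DMb1. Of 32851 such windows of all genes in the table, 24.5% held them on either strand, so a match is common and is a description of these letters only.

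H2-Aa, the alpha chain of the class II molecule I-A, was at 4321 CPM in the selected cells of library 1, 1491 in library 2, 767 in library 3 and 781 in library 4. In the Chil3-positive cells of libraries 2, 3 and 4 it was at 731, 126 and 293 CPM. The selected cells were higher in each of these 3 libraries, and the mean log2 difference within them was 1.64. H2-Eb1, the beta chain of the molecule I-E, was at 2441, 716, 362 and 474 CPM against 281, 51.4 and 181 CPM, a mean log2 difference of 1.75. H2-DMb1, a subunit of the H2-DM complex that exchanges peptides on class II molecules, was at 422, 173, 71.4 and 81.1 CPM against 41.1, 9.52 and 28.7 CPM, a mean log2 difference of 1.71. H2-Ea-ps encodes the alpha chain of I-E and is annotated as a polymorphic pseudogene because some strains do not express it. It was at 2583, 791, 534 and 531 CPM against 388, 89.4 and 197 CPM.

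The other class II genes lay in the same direction without reaching 2-fold in each library. H2-Ab1, the beta chain of I-A, was at 911, 587 and 643 CPM in libraries 2 to 4 against 474, 111 and 230 CPM, and Cd74, the invariant chain, at 3710, 2326 and 2089 CPM against 1982, 513 and 874 CPM. H2-DMa, the partner of H2-DMb1, differed least among the tested list genes, at 344, 213 and 253 CPM against 282, 132 and 200 CPM. Ciita, the transactivator that switches these genes on, was at 12, 6.97 and 18.0 CPM against 3.58, 0.952 and 7.09 CPM, below the level for testing. Of the 10 list genes 7 could be tested, of which 3 were called higher and 0 lower. Among all tested genes 0.139% were called higher and 0.0174% lower. The median log2 difference of the 7 list genes was 1.56 beside 0.03 for all tested genes. Summed over the list, the selected cells held 7389, 4357 and 4366 CPM and the Chil3-positive cells 3816, 952 and 1825 CPM. The list sum in the selected cells of library 1 was 22899 CPM. In its 3 Chil3-positive cells, too few to compare, it was 23835.5 CPM.

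**Figure D2:**
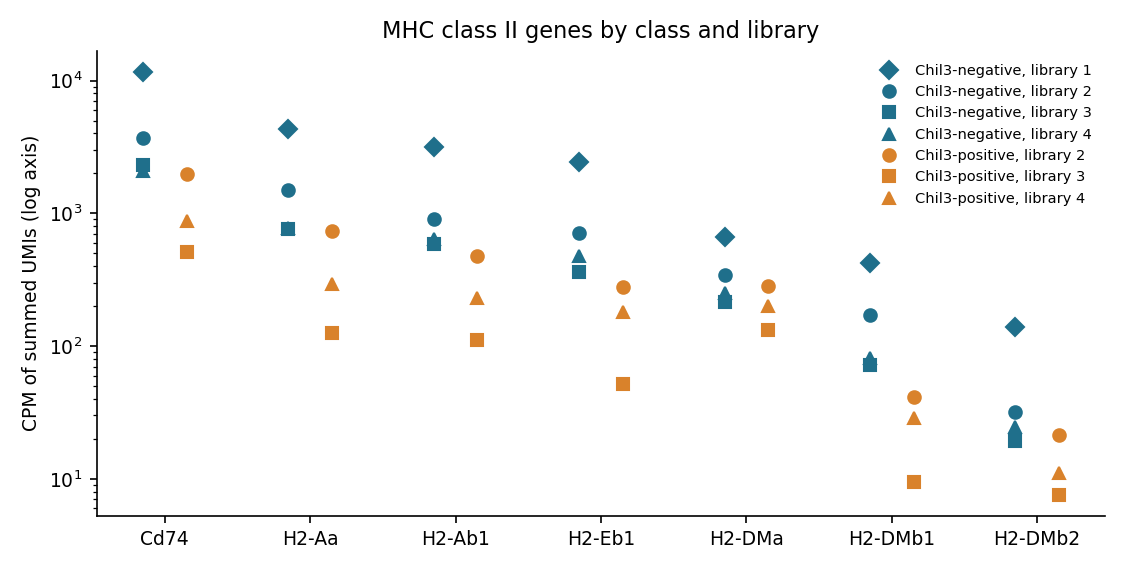
CPM of 7 MHC class II genes (log axis) in the Chil3-negative monocytes of 4 libraries and the Chil3-positive monocytes of libraries 2 to 4; each point is the sum over 1 class in 1 library. Within libraries 2, 3 and 4 each gene was higher in the Chil3-negative cells, and library 1 stood highest for every gene shown.

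The class II transcripts were spread over most cells of library 1 and held mainly by a minority of cells in libraries 2 to 4. In the median selected cell the list made up 2.68%, 0.0845%, 0.0492% and 0.0540% of UMIs in libraries 1 to 4, and in the median Chil3-positive cell 0.0523%, 0.0361% and 0.0444% in libraries 2 to 4. Cells in which the list reached 1% of UMIs, a limit chosen after its distribution was seen, numbered 30 of 46, 18 of 106, 13 of 138 and 93 of 1026. These are 65.2% (49.8 to 78.7%), 17.0% (10.4 to 25.5%), 9.42% (5.11 to 15.6%) and 9.06% (7.38 to 11.0%). Among Chil3-positive cells they were 8.64% in library 2 (3.54 to 17.0%), 0.769% in library 3 (0.0195 to 4.21%) and 2.75% in library 4 (2.01 to 3.66%). The share in library 3 was 1 of 130 cells. The intervals overlapped in library 2 and did not in libraries 3 and 4, but they cover counting error only. The cells at 1% or more held 95.6% of the class II UMIs of the selected cells in library 1, where they were the majority, and 78.9%, 81.6% and 79.2% in libraries 2 to 4. In T cells the share at 1% or more was 2.65%, 2.02%, 0% and 0%. A share of 0 of 423 and of 205 T cells allows up to 0.709% and 1.46% of cells.

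**Figure D3:**
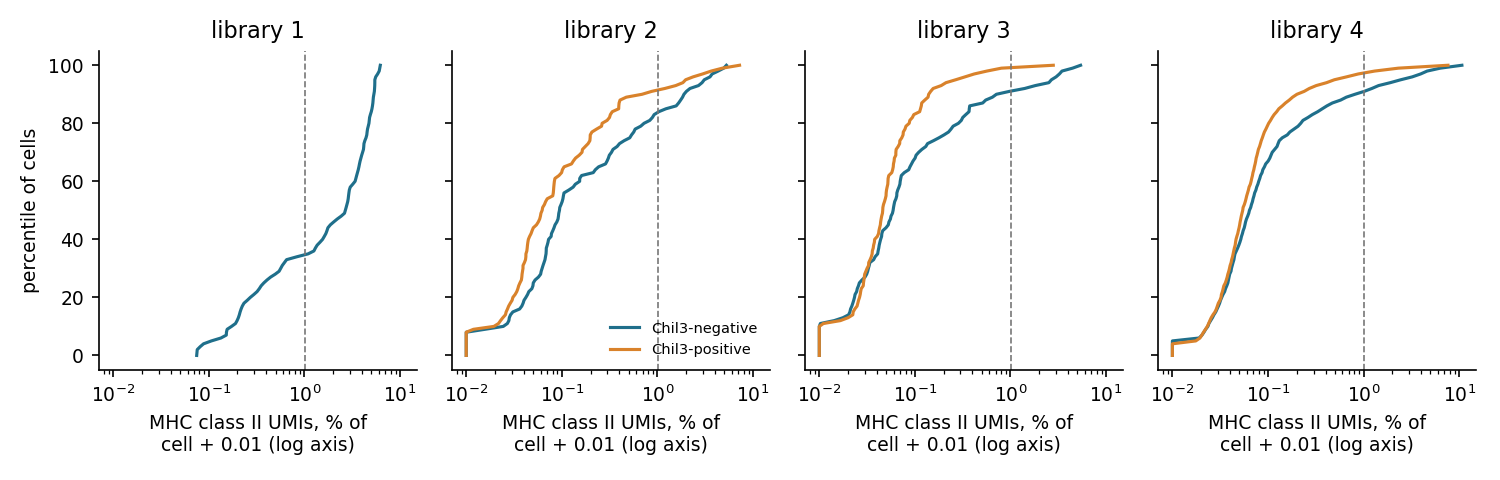
Percentile of cells against the percent of each cell's UMIs in the MHC class II list, plus 0.01 (log axis), for the Chil3-negative (4 libraries) and Chil3-positive (libraries 2 to 4) monocytes; the dashed line marks 1%. The medians lie close together in libraries 3 and 4, the Chil3-negative curve has more cells beyond the line in libraries 2 to 4, and in library 1 most cells lie beyond the line.

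Monocyte genes went in different directions in the class II-high cells. Ms4a4c was at 838, 1259, 853 and 1482 CPM there in libraries 1 to 4. The other selected cells had 411, 738, 1019 and 1463.5 CPM. Csf1r was at 251.5, 263, 282 and 204 CPM against 143, 275.5, 186 and 206 CPM. In library 1 Cd14 was at 1357 against 579 CPM and Fcgr1 at 487 against 285 CPM, while both were lower in libraries 2 to 4. Plac8 was at 3998, 2303, 2625 and 3035 CPM in them in libraries 1 to 4 and at 2826, 2428, 2755 and 3181 CPM in the other selected cells. Hp, haptoglobin, was at 68.1, 94.3, 50.6 and 153 CPM against 117, 266, 243 and 454 CPM. Thbs1, the adhesive glycoprotein thrombospondin 1, was at 68.1, 128, 181 and 202 CPM against 143, 586, 675 and 609 CPM, lower in each library. Vcan was lower in each library too, at 15.7, 80.8, 325 and 260 CPM against 41.9, 329, 444 and 593 CPM. In library 1 it had a UMI in 6.67% of class II-high cells and 25% of the other selected cells. A single UMI there was 5.24 CPM in the class II-high cells and 8.39 CPM in the others, so these values are few molecules. Lyz2 was at 4448, 3124, 9054 and 5975 CPM against 3992, 7565, 9143 and 12102 CPM, so the clear gaps were in libraries 2 and 4. Genes known from dendritic cells differed in their pattern over libraries. Cd209a, the lectin DC-SIGN, was at 0, 108, 72.3 and 112 CPM against 0, 36.7, 9.90 and 3.90 CPM, and in library 4 it had a UMI in 21.5% of class II-high cells and 1.5% of the others. Flt3, the receptor of dendritic cell progenitors, was at 0, 20.2, 28.9 and 38.2 CPM against 0, 0, 5.94 and 3.23 CPM. Itgax, the integrin CD11c, was higher in all 4 libraries, at 89.1, 33.7, 50.6 and 103 CPM against 41.9, 5.01, 3.96 and 4.68 CPM. Xcr1 and Clec9a, markers of the cDC1 type of dendritic cell, were at 20.1 and 11.5 CPM in the class II-high cells of library 4 against 0.111 and 0.668 CPM, in 5.38% of these cells each, whereas in library 2 both were at 0 against 1.67 CPM. Xcr1 was at 7.23 against 0 CPM in library 3 and at 0 in both in library 1, and Clec9a at 5.24 against 0 CPM in library 1 and 0 against 0.990 CPM in library 3. Zbtb46, a factor of conventional dendritic cells, had a UMI in 7.53% of class II-high cells of library 4 and in none of libraries 1 to 3. Tnip3, Ifitm1, Cbfa2t3, Slamf9 and Ifi30 were genes outside the class II family that were at least 2-fold higher than in the other selected cells in all 4 libraries. Mgl2 was uneven, at 5.24, 121, 296.5 and 8.60 CPM in libraries 1 to 4 against 8.39, 3.34, 0 and 2.56 CPM. Ifitm1, an interferon-induced membrane protein, was at 2436, 2033, 767 and 2356 CPM against 461, 377, 218 and 401 CPM. The part of the class II-high cells in the difference from the Chil3-positive cells was not tested. Removing every cell with a UMI of 8 dendritic cell genes from both classes, whatever its class II level, left Nkg7 and H2-DMb1 as the higher genes, with a mean log2 difference of the class II sum of 1.30 in place of 1.47.

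The cytotoxic genes came from a small number of cells. Gzma, a granzyme, was at 95, 276 and 112 CPM in the selected cells of libraries 2 to 4 against 0, 4.76 and 16.5 CPM, and at 41.9 CPM in library 1. It had a UMI in 6, 1, 4 and 67 cells of libraries 1 to 4, and in library 2 all 71 of its UMIs were in 1 cell. Nkg7, a granule protein of killer cells, was at 193, 45.5, 91.5 and 37.9 CPM against 0, 0 and 3.45 CPM, in 9, 2, 5 and 34 cells. Il2rb, a chain of the interleukin-2 receptor, was at 58.0, 34.8, 69.7 and 18.2 CPM against 0, 1.90 and 1.79 CPM. Taken over the 5 NK cell genes of a marker list, 7, 2, 5 and 22 selected cells held 3 or more UMIs, and these held 97.2%, 100%, 99.8% and 96.2% of the list's UMIs. In 7, 2, 4 and 13 of these cells Lyz2 was below 5 UMIs. The summed list was at 342, 193, 420 and 167 CPM and none of its genes was at 0. Gzma gave 317 of its 482 UMIs in library 3 and 1120 of 1677 in library 4, but 71 of 144 in library 2 and 13 of 106 in library 1, where Nkg7 gave 60. Ctla2a, which encodes a cathepsin inhibitor of activated T cells, was at 287, 33.4, 74.9 and 26.3 CPM against 8.94, 4.76 and 6.35 CPM. Without cells that held a UMI of the NK list, 4 genes were higher, the 4 class II genes named above. Without cells with NK or dendritic cell genes none was called higher, while the mean log2 difference of the class II sum was 1.23.

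No gene of the list for granulocyte-related monocytes was called, beside 0.139% of all tested genes called higher and 0.0174% lower. The sum of this list was lower in the selected cells of each library compared. Summed over 10 such genes the level was 265, 214 and 241 CPM in libraries 2 to 4 against 515, 354 and 295 CPM. Of the list 4 genes could be tested, and the median log2 difference was -0.44. Mmp8, a collagenase, was at 56.2, 56.6 and 56.5 CPM against 118, 148 and 86.2 CPM, with no overlap between the classes. Elane, Mpo and Ctsg, which mark granulocyte precursors, were at 1.34 CPM or less in the selected cells of all libraries. Summed over 9 dendritic-type genes the level was 175, 146 and 95.8 CPM against 80.4, 28.6 and 48.3 CPM, with 3 genes tested and none called. Its Cd209a was at 50.8, 17.4 and 15.2 CPM against 0, 0 and 4.19 CPM.

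None of the general monocyte genes was called, beside 0.139% of all tested genes called higher and 0.0174% lower. The sum of the monocyte genes was lower in the Chil3-negative cells of each library. The sum of 14 such genes was 15902, 19356 and 23249 CPM against 25338, 25461 and 27546 CPM, with a median log2 difference of -0.26. Lyz2 was at 6682, 9132 and 11462 CPM against 13357, 12672 and 14123 CPM, so its values did not overlap between the classes. Hp was at 232, 220 and 423 CPM against 440, 429 and 535 CPM. Vcan, the matrix proteoglycan versican of inflammatory monocytes, was at 280, 429 and 559 CPM against 550, 444 and 670 CPM, with overlapping values. Csf1r, the receptor for macrophage colony-stimulating factor, was at 273, 198 and 205 CPM against 374, 218 and 224 CPM.

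Some levels were ordered along the range of Chil3 counts. In library 4 the class II sum was 4366, 3005, 1430 and 1052 CPM in cells with 0, 1, 2 to 4 and 5 or more Chil3 UMIs, the monocyte sum was 23249, 23819, 27657 and 31065 CPM, and Lyz2 was at 11462, 11844, 13781 and 16663 CPM. Hp was not ordered throughout, at 423, 422, 532 and 650 CPM. Median depth in these bins was 8741, 9020, 8755 and 8886 UMIs. In library 3 the class II sum was 4357, 1716, 586 and 689 CPM. In library 2, with 22 to 34 Chil3-positive cells in a bin, it was 7389, 1249, 3171 and 6316 CPM, which is not an ordered series. The monocyte sum was ordered in these libraries too, at 15902, 23150, 25804 and 26311 CPM in library 2 and 19356, 22223, 26024 and 28513 CPM in library 3.

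**Figure D4:**
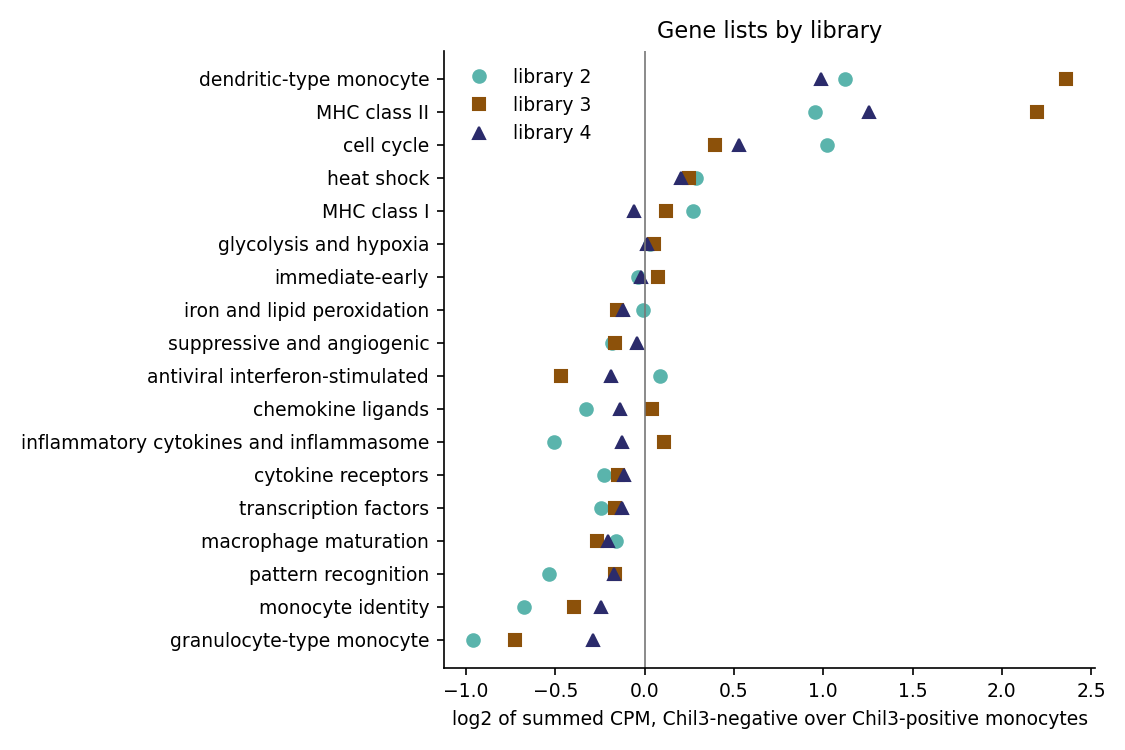
Log2 ratio of the summed CPM of 18 gene lists, Chil3-negative over Chil3-positive monocytes, in libraries 2, 3 and 4 (1 point a library). The dendritic-type list (0.99 to 2.36) and the MHC class II list (0.95 to 2.19) lie highest, and the monocyte (-0.67 to -0.25) and granulocyte-type lists (-0.96 to -0.29) lie lowest.

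No cell cycle gene was called in either direction, beside 0.139% of all tested genes called higher and 0.0174% lower. The 17 cell cycle genes summed to 767, 807 and 866 CPM in libraries 2 to 4 against 377, 615 and 600 CPM, and the median log2 difference of the 10 tested was 0.68. In library 3 the cells with 2 to 4 Chil3 UMIs had 809 CPM, close to the selected cells. Stmn1, a tubulin regulator of dividing cells, was at 124, 62.7 and 62.0 CPM against 16.1, 25.7 and 28.0 CPM. Cells with UMIs of at least 2 of Mki67, Top2a, Birc5 and Cdk1 were 2 of 106, 6 of 138 and 49 of 1026 selected cells, against 0 of 81, 1 of 130 and 44 of 1636. The exact intervals overlapped in all 3 libraries, and at 2000 UMIs per cell these shares were 1.94%, 0.763% and 1.29% against 0%, 0% and 0.429%. Heat shock genes had a median log2 difference of 0.35 and MHC class I genes of 0.12.

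In the remaining lists none of the genes was called, beside 0.139% of all tested genes called higher and 0.0174% lower. The medians lay between -0.26 and 0.03 in the lists named here. The antiviral interferon-stimulated genes, 28 of 28 tested, had a median log2 difference of -0.16. Isg15, a ubiquitin-like antiviral protein, was at 1430, 1213 and 1989 CPM against 1434, 1871 and 2209 CPM. The chemokine ligands, 17 of 18 tested, had a median of -0.17, and Ccl5 differed most among them, at 459, 250 and 167 CPM against 80.4, 164 and 75.5 CPM. Inflammatory cytokine and inflammasome genes had a median of -0.15, the suppressive and angiogenic genes -0.13 and pattern recognition receptors -0.26. Among iron and lipid peroxidation genes, which are of interest because the carrier blocks GPX4, the median was -0.01. Gpx4 itself was at 288, 195 and 248 CPM against 236, 202 and 257 CPM, and Slc7a11, the cystine importer, at 77.6, 71.4 and 27.8 CPM against 125, 84.7 and 25.5 CPM. The values of both genes overlapped between the classes. The lists for cytokine receptors (-0.13), transcription factors (-0.07), NADPH oxidase (-0.16), checkpoint ligands (-0.14), macrophage maturation (-0.17) and glycolysis and hypoxia (0.03) are given by their median log2 difference in brackets.

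Compared with C1q-high macrophages, 2365 cells in which the C1q genes made up at least 0.3% of UMIs, the selected cells had more monocyte and fewer macrophage transcripts. In all 4 libraries 30 of 6110 genes were at least 2-fold higher (0.491%) and 36 were at least 2-fold lower (0.589%). The C1q genes themselves set the classes apart. Of 14 monocyte genes 4 were called higher and 0 lower. Hp was at 87.1, 232, 220 and 423 CPM in the selected cells of libraries 1 to 4 and at 5.26, 42.6, 41.7 and 121 CPM in the macrophages, and Vcan at 25.8, 280, 429 and 559 CPM against 1.71, 34.8, 83.3 and 157 CPM. Napsa, an aspartic protease, was at 245, 234, 191 and 251 CPM against 31.1, 15.3, 25.0 and 69.0 CPM. Also higher were Cytip, an adaptor that releases adhesion, F10, which encodes coagulation factor X, and Dmkn. Gzma, Nkg7, Il2rb and Klrd1, a lectin of NK cells, were higher too, from the few cells described above.

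Of 18 macrophage genes, 6 were called lower than in the macrophages and 0 higher, with a median log2 difference of -1.04 beside 0.02 for all tested genes. Mrc1, the mannose receptor, was at 19.4, 478, 269 and 325 CPM in libraries 1 to 4 against 152, 1623, 947 and 754 CPM. Pf4, a platelet chemokine that tissue macrophages also make, was at 12.9, 2470, 4544 and 3023 CPM against 439, 8314, 21666 and 12675 CPM. Ccl8, a chemokine for monocytes, was at 35.5, 1165, 1354 and 945 CPM against 756, 11935, 5473 and 6925 CPM. Gas6, a ligand for receptors that bind dying cells, was at 3.23, 24.1, 12.2 and 17.4 CPM against 28.1, 570, 247 and 182 CPM, and Selenop, a selenium carrier, at 77.4, 397, 272 and 322 CPM against 371, 4087, 1897 and 1410 CPM. Npl, Fcrls and Hpgds completed the lower genes of the leading set. Of 8 tested class II genes none was called in either direction, beside 0.491% of all tested genes called higher and 0.589% lower. The class II sum was lower in the selected cells than in the macrophages of library 1, at 22899 against 36217 CPM, and higher in libraries 2 to 4, at 7389, 4357 and 4366 CPM against 3257, 1147 and 1019 CPM.

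Library 1 stood apart among the selected cells. Of 6655 genes 239 differed by at least 4-fold between the highest and the lowest library (3.59%). Library 1 was the highest for 99 of them and the lowest for 121. Among libraries 2 to 4 alone 38 genes reached that range. Each library is 1 sample of unknown treatment, and its 46 cells make library 1 the least precise.

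By list, 7 of 8 tested class II genes, 13 of 17 chemokine genes, 7 of 17 macrophage genes, 5 of 14 monocyte genes and 3 of 11 inflammatory cytokine genes had a 4-fold range between libraries, beside 3.59% of all genes. The chemokine sum was 7981, 20980, 39555 and 23153 CPM in libraries 1 to 4, and the inflammatory sum 4592, 2499, 3396 and 1375 CPM. Il1b, the precursor of interleukin-1 beta, was at 3383, 1255, 1722 and 386 CPM in libraries 1 to 4, so that library 4 was lowest. Klf2, a transcription factor of quiescent monocytes, was at 1451, 302, 256 and 213 CPM, and Klf4, a related factor needed for monocyte formation, at 938, 495, 215 and 170 CPM. Cxcl9, a chemokine induced by interferon-gamma, was at 497, 37.5, 27.9 and 2.69 CPM, from 14, 2, 1 and 14 cells. Pf4 was at 12.9 CPM in library 1 and at 2470 CPM or more elsewhere, Ccl7 at 38.7 CPM against 1742, 2475 and 1436 CPM, and Ccl8 at 35.5 CPM against 945 CPM or more. Hmox1, heme oxygenase, was at 74.2, 590, 749 and 660 CPM. The macrophages of the same libraries were ordered the same way between library 1 and the others, with Il1b at 3333, 424, 278 and 140 CPM, Ccl7 at 589, 2148, 3061 and 2359 CPM and Hmox1 at 180, 1205, 2175 and 2283 CPM. Of the 239 genes 139 also had a 4-fold range in the macrophages, in which 371 of 6753 genes did.

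**Figure D5:**
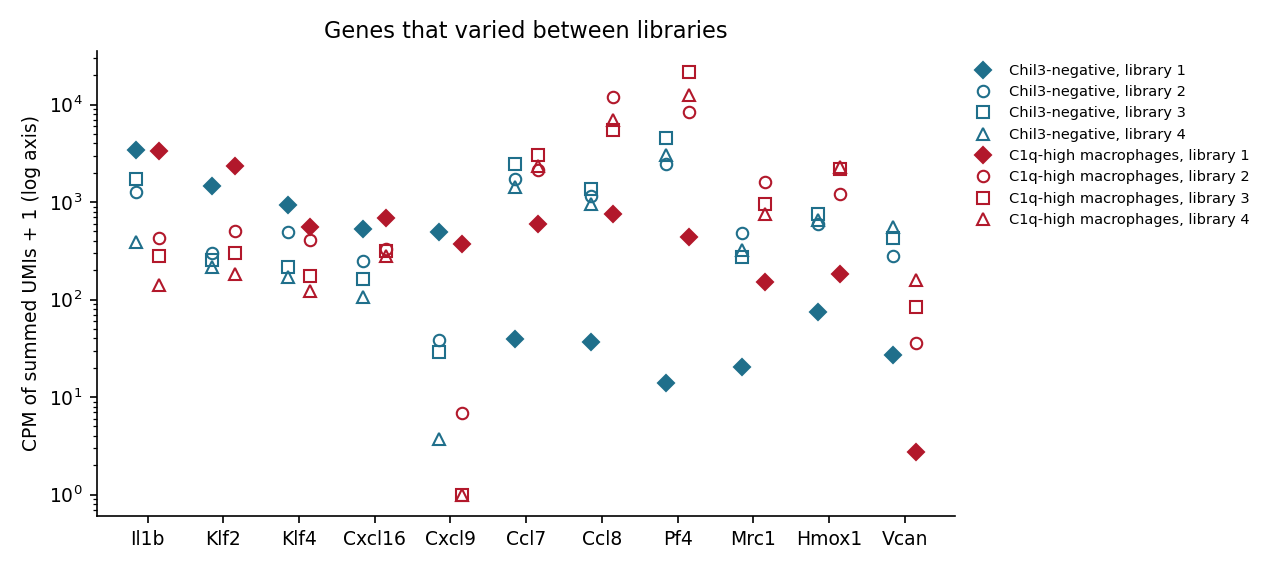
CPM plus 1 (log axis) of 11 genes in the Chil3-negative monocytes and the C1q-high macrophages, 1 point a library; filled diamonds are library 1. The 4 left genes and Cxcl9 were highest and Ccl7, Ccl8, Pf4, Mrc1, Hmox1 and Vcan lowest in library 1 in both classes.

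Some library differences lay in few cells. Gzmc, a granzyme, was at 2954 CPM in library 1, where 6 cells held it and 1 cell had 547 of its 916 UMIs. Gzmd there came from 1 cell. Epithelial transcripts differed between libraries in other cells too. Krt18, a keratin, was at 464, 126, 0 and 0.798 CPM in libraries 1 to 4 and Wfdc2, a secreted epithelial protein, at 671, 210, 0 and 0 CPM. In library 2, 88 of 94 Krt18 UMIs lay in 1 cell, as did 140 of 157 Wfdc2 UMIs, though whether in the same cell was not recorded. The 6 tumour and epithelial genes summed to 1222, 376, 2.61 and 11.4 CPM, Krt18 was their most abundant gene by UMIs and none was at 0 over the 4 libraries together. In library 1 the same sum was 2706 CPM in T cells and 5165 CPM in neutrophils, above its level in the selected cells. In library 3 the leading Gzmb (351 CPM), Il1rl1 (114 CPM) and Cryab (179 CPM) each had most of their UMIs in 1 cell, with 292, 113 and 184 UMIs. Serpinb2, a serpin, was at 0, 8.03, 218 and 85.5 CPM, with 221 of its 250 UMIs in library 3 in 1 cell. In library 2 AY761185 lay in 2 cells, whereas Saa3, an acute-phase protein, at 152, 878, 119 and 317 CPM, was found in 81 of 106 cells. Abca1, a cholesterol exporter, was at 0, 141, 63.6 and 35.2 CPM. Among the genes chosen for library 4 were Cxcl5, a neutrophil chemokine, at 6.45, 41.5, 49.6 and 214 CPM, of which 1 cell held 882 UMIs, and Dcn, a matrix gene of fibroblasts, at 9.67, 95, 320 and 320 CPM. Hbb-bs, a haemoglobin chain, was at 3.23, 1.34, 8.71 and 48.0 CPM, with 355 of 481 UMIs of library 4 in 1 cell, and Fst, the activin inhibitor follistatin, at 0, 4.01, 19.2 and 46.6 CPM.

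Markers of other cells were also summed. The 7 neutrophil genes summed to 61.3, 202, 218 and 79.5 CPM in libraries 1 to 4, Csf3r was the most abundant by UMIs and Ngp was at 0. The T cell list was at 51.6, 24.1, 70.6 and 12.9 CPM with Trbc2 leading, B cell genes at 12.9 CPM or less, and plasmacytoid dendritic genes at 12.9 CPM or less. The basophil and mast cell list was at 1.80 CPM or less with Ms4a2 at 0. The cDC1 and mature dendritic list was at 41.9, 26.8, 46.2 and 28.6 CPM, led by Fscn1. The fibroblast list was at 87.1, 424, 659 and 747 CPM, led by Sparc, the endothelial and mural list at 45.1, 58.9, 82.7 and 66.1 CPM with Cldn5 at 0, and the erythroid list at 6.45, 2.68, 10.5 and 78.4 CPM. Their part in the differences between libraries was not tested. Over all kept cells the fibroblast list was at 758, 9505, 6207.5 and 4844 CPM in libraries 1 to 4. The tumour and epithelial list was at 6120.5, 555, 12.6 and 11.2 CPM over all kept cells. The kept cells therefore held transcripts known from cells other than leucocytes, in unequal amounts by library. How many kept cells were not leucocytes was not counted. Of the selected cells 55 lay among the highest 5% of doublet scores of their library, or 4.18%.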

How the data were processed

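The single matrix deposited by the authors holds UMI counts, not normalized, of 55450 genes in 33064 barcodes, made with Cell Ranger (3.0.2 in the methods, 2.1.1 in the submitters' processing notes, 6.1.2 in the matrix header) on mm10; no source used here gives the annotation, and all gene IDs were found in GENCODE vM21. Library totals were 69255999 to 108646352 UMIs. The labels give 15603 cells after filtering; the filter used here left 32133 barcodes. Barcode suffixes name 4 libraries.

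UMIs were summed per class and library and scaled to counts per 1000000 UMIs (CPM). Differences are log2 ratios after adding 10 CPM, within libraries holding 20 cells of both classes, for genes at 20 CPM or more in either class. A gene was called at 2-fold in every library, or 4-fold between libraries. Cells are not replicates, so no hypothesis test was made. Shares carry exact (Clopper-Pearson) 95% intervals; 0 was limited by 3 counts. Doublets were kept; Scrublet's own threshold marked 2.75%, 0.0116%, 0% and 1.73% of the 4 libraries, so it did not work in libraries 2 and 3. Members and lists were chosen with earlier results of these data known. Genes named are those of the rule, the markers, the lists, the 10 called genes of largest difference per class comparison, the 10 highest over other cells and the 5 highest per library. Genes leading the class II-high cells were chosen after their values were seen. The call rule was tested on simulated sums drawn around 1 common profile. These held no variation between cells or libraries, so the simulation does not cover genes carried by few cells. Python 3.11.15, numpy 2.4.6, scipy 1.17.1, pandas 2.3.3 and scanpy 1.11.5 were used. Some genes covered by these rules are not reported here.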

Additional observations from a re-analysis of the deposited data

How the results depend on the processing

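The share of selected cells (4.10%) was 5.54% with at least 1 Ly6c2 UMI, 3.36% with at least 3, 5.90% with at most 1 Chil3 UMI, and 1.25% to 5.23% leaving out each library, lowest without library 4. The 8 genes higher than in Chil3-positive cells became 18 and 2 with 1 and 50 CPM added, 5 at 100 CPM or more, and 8 to 32 leaving out each library. In other settings the count stayed near 8 while the genes changed. There were 7 at 2000 UMIs per cell (5 of them among the 8) and 7 without doublet-scored cells (6 among the 8). Against cells with at least 3 Chil3 UMIs there were 8, of which 4 were among the first 8. The 1 lower gene became 2 without doublet-scored cells and 1 to 2 leaving out each library. Among choices made after seeing the data, the 8 became 4 without cells with NK cell genes, 2 without cells with dendritic cell genes, 0 without either, and 4 without cells below 5 Lyz2 UMIs. The 30 genes higher than in macrophages became 73 and 8 with 1 and 50 CPM added and 18 at 100 CPM or more, and the 36 lower became 73, 11 and 23. Leaving out each library gave 37 to 67 higher (67 without library 1) and 39 to 80 lower (80 without library 1). The 239 genes between libraries became 630 and 56 with 1 and 50 CPM added, 130 at 100 CPM or more, 649 at 2000 UMIs per cell, 374 without cells with dendritic cell genes, 403 also without NK cell genes, and 38 to 206 leaving out each library, 38 without library 1. The mean log2 difference of the class II sum (1.47, standard deviation over libraries 0.646) stayed between 1.11 and 1.80 in every setting run. The settings of added CPM and of lowest CPM, and leaving out library 1, could not move it. It is a ratio of summed CPM taken in libraries 2 to 4.

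No paired analysis was possible because no source used here links a library to a sample, which bears on treatments only, as class differences were taken within libraries. Library 1, with 46 cells and 310102 UMIs of them, gives 1 UMI a level of 3.22 CPM, so values near that are single molecules. Since the libraries are not linked to the samples, differences between mice, treatments and libraries cannot be told apart.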
